A study of Mus musculus with 9 samples.

Results

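Genes of bone formation and bone resorption were followed in whole cochlear tissue of male C57BL/6 mice, chosen as a fixed set of 10 genes and measured through every probe set of the array that carries exactly 1 of their symbols. Of these genes, 8 had such probe sets, 13 of the 45037 on the array. They were Ibsp, Sp7, Alpl, Dmp1 and Phex of osteoblasts or osteocytes, with 9 probe sets, and Ctsk, Acp5 and Mmp9 of osteoclasts, with 4. Runx2 and Spp1 were not analysed here. The groups were 15-month-old calorie-restricted mice (CR), 15-month-old controls (MC) and 4-month-old controls (YC), with 3 samples each. The restricted mice were fed 62 kcal per week, a reduction of 26% begun at 2 months of age, and both control groups were fed 84 kcal per week. Each sample pooled 4 cochleae of 2 mice, and all mice were housed singly. The question was how transcripts of bone cells differed with restriction, set against MC, and with age, set against YC.

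The cochlea lies inside a bony shell, the otic capsule, so that RNA of a dissected cochlea can hold RNA of bone cells and of marrow nearby. Osteoblasts lay down and mineralise bone matrix, osteocytes are osteoblasts that became embedded in it, and osteoclasts, which derive from myeloid cells, dissolve it with acid and proteases. Osteoclast formation is driven by RANK ligand and held back by osteoprotegerin, and capsule bone is known for remodelling little in adult life. In pooled tissue of this kind, fewer cells of a type and less RNA per cell cannot be told apart.

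Dmp1 and Ibsp are neighbours on mouse chromosome 5 and encode acidic matrix proteins of mineralised tissue, and their start sites are shown because their main probe sets, with that of Phex, had the highest changes among the members in CR against MC. The start of Alpl is shown as the member with the lowest change. RefSeq windows of build GRCm38.p6 ran from 250 bases before to 50 after an annotated start. Windows were held for 8 of the 10 genes, 13 in all, among them Runx2 and Spp1 but not Sp7 or Mmp9. Shown on the plus strand are chr5:104299037-104299336 for Ibsp and chr5:104197325-104197624 and chr5:104202367-104202666 for 2 starts of Dmp1. Shown on the minus strand are chrX:157415237-157415536 for Phex and chr4:137796335-137796634 for the first of 2 starts of Alpl. Each is written 5′ to 3′ along the gene. Capitals mark the core sequence that runt factors such as Runx2 bind, ACCACA or its reverse complement TGTGGT, and the CCAAT box, CCAAT or its reverse complement ATTGG. These 2 motifs share no overlap in the windows shown.
Ibsp: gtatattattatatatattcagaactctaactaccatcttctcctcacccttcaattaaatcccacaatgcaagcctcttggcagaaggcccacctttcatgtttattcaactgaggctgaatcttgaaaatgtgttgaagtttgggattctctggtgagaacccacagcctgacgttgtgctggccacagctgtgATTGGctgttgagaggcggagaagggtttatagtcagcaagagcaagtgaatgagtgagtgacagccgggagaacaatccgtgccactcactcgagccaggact
Dmp1 start 1: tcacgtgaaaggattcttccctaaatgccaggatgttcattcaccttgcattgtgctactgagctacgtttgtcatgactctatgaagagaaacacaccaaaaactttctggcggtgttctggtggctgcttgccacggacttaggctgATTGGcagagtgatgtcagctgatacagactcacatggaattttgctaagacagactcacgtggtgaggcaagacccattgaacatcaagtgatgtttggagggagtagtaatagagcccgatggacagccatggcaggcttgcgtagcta
Dmp1 start 2: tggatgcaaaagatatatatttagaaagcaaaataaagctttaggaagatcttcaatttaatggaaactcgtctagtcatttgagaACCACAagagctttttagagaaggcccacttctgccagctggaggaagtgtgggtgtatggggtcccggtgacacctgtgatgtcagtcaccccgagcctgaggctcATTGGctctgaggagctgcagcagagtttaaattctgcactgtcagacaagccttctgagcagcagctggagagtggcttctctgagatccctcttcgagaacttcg
Phex: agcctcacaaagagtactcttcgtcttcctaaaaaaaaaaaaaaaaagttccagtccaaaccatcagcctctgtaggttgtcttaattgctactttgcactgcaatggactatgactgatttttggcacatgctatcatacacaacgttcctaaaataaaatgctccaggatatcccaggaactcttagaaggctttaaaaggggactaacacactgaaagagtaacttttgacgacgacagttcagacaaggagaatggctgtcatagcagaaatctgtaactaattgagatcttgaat
Alpl start 1: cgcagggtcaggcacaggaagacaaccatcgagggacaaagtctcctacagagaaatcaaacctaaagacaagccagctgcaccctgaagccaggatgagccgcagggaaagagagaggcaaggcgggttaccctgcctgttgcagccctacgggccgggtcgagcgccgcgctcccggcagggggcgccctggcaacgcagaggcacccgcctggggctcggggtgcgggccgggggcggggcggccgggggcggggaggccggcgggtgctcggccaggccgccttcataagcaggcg

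A CCAAT box on the reverse strand began 54 bases before the start of Ibsp, 101 before the first and 57 before the downstream start of Dmp1. The window of Phex and both windows of Alpl held none. Of all 32851 RefSeq promoter windows of this length, 37.4% held a CCAAT box on either strand, and 6 of the 13 windows of the set did. The runt core was found at the downstream start of Dmp1, 164 bases before it. It was also in 1 window each of Runx2 and Spp1, which were not analysed here. That makes 3 of the 13 windows of the set, where 16.8% of all windows held it. These are matches of letters and say nothing of binding.

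Signals were compared as log2(signal + 16) after quantile normalization, which gives every array the same distribution, and all values below are on that scale. Array medians of the deposited signal lay between 526.8 and 626.6 on the 3 CR arrays and YC 1, called low-median here, and between 842.4 and 1103.9 on the 3 MC arrays, YC 2 and YC 3, called high-median. CR and MC therefore lie wholly in different classes of arrays, and their difference cannot be told apart from that of the classes. Cochlear tissue was evident from Coch and Otos, genes of spiral ligament fibrocytes, whose mean signals lay at the 99.2 percentile of all probe sets. Marrow and muscle were present as well, with the neutrophil gene S100a8 at the 99.7 and the muscle actin gene Acta1 at the 99.9 percentile. The bone genes lay lower, from the 46.9 percentile for the main probe set of Phex to the 91.2 for Ctsk, each gene's main probe set being its brightest. Of the 13 probe sets, 11 passed the signal filter at the 40th percentile, and Dmp1 1426005_at (31.4) and Phex 1450445_at (14.5) did not.

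No probe set of the set passed the threshold of an adjusted p under 0.05 (limma, Benjamini-Hochberg over 27022 probe sets) in any comparison. The share of all probe sets that passed was 0.0925% for CR minus MC, and it was 0% for MC minus YC and for CR minus YC. The smallest adjusted p of a member was 0.215 for CR minus MC (Ibsp), 1 for MC minus YC and 0.457 for CR minus YC (Phex). At an unadjusted p under 0.05, 1 of the 11 tested probe sets stood out in each comparison, where 18.5%, 3.39% and 10.8% of all probe sets did in that order. The moderated F test over the 3 groups called 0 of 27022 probe sets, 11.9% had an unadjusted p under 0.05, and Ibsp had the smallest member p (unadjusted p = 0.033, adjusted p = 0.389).

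**Figure D1:**
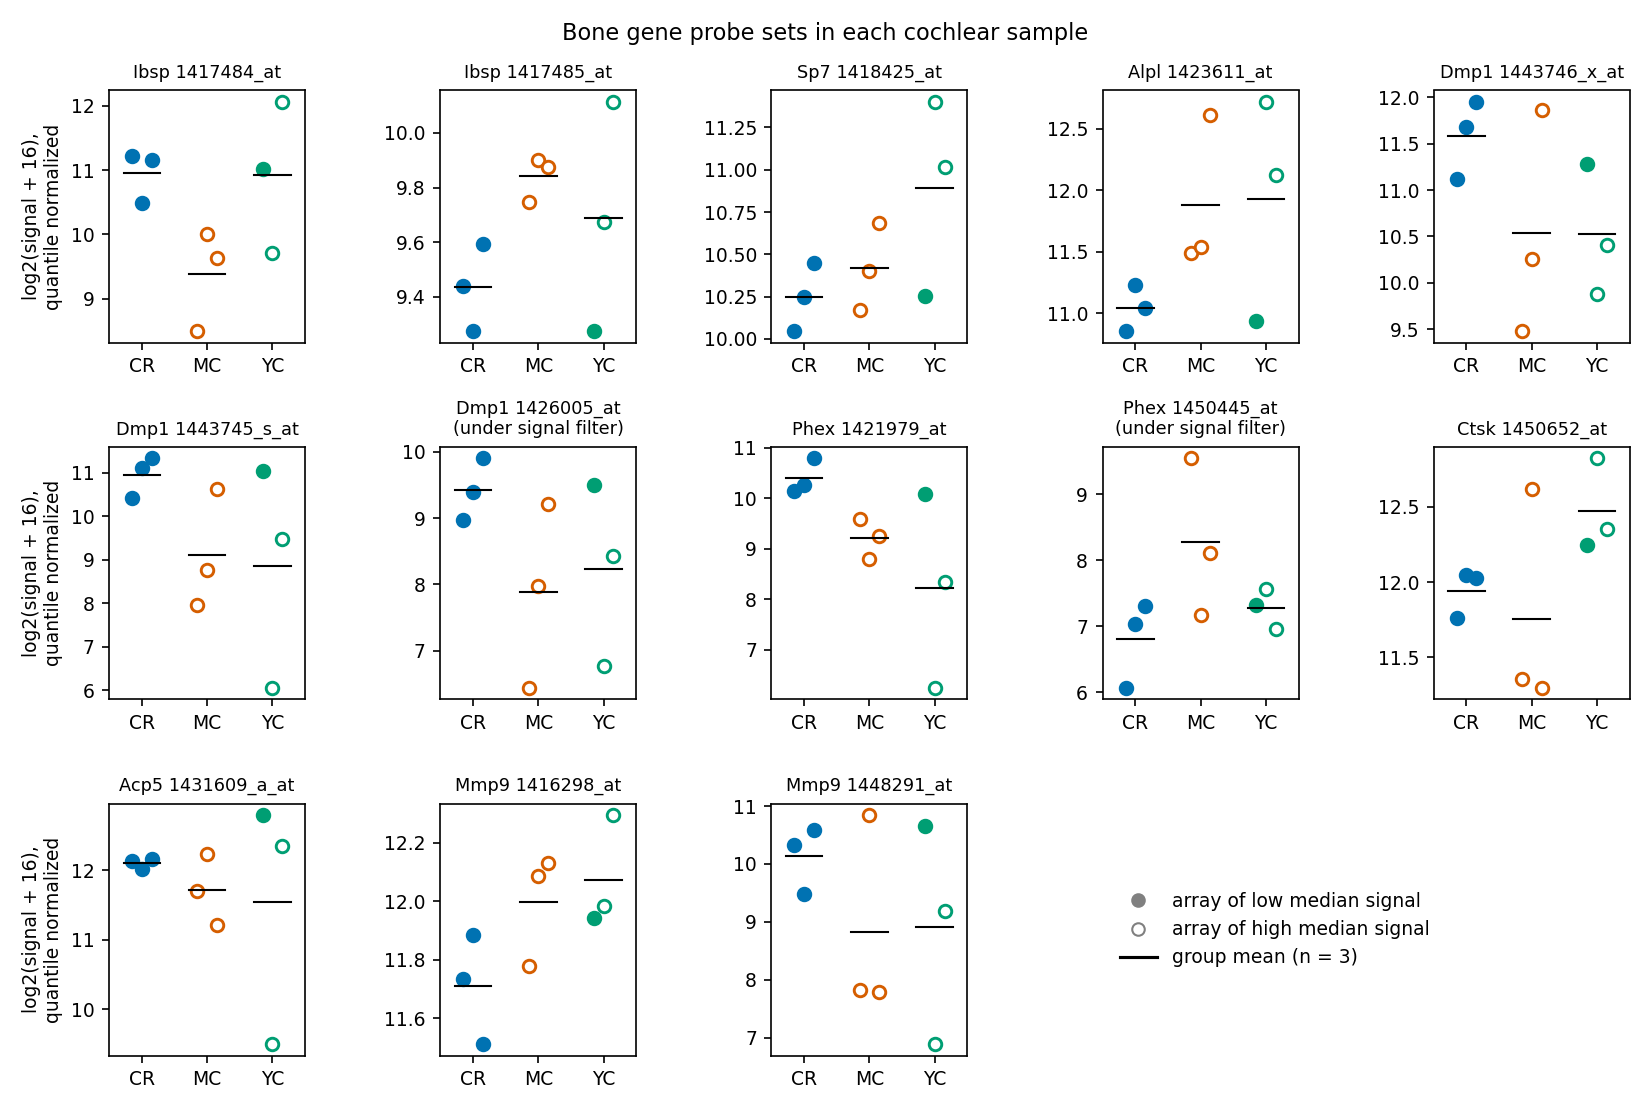
Normalized log2 signal (y axis) of the 13 bone gene probe sets in the CR, MC and YC samples (x axis), 1 point per array and a line at the group mean of 3. Filled points are arrays of low and open points arrays of high median signal; YC 1, the only filled point of its group, lies beside the CR arrays for Phex 1421979_at, Alpl and both tested Dmp1 probe sets.

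Sp7 encodes osterix, a transcription factor that osteoblasts need to form. It gave 10.05, 10.25 and 10.45 in the CR arrays, 10.17, 10.40 and 10.68 in the MC arrays and 10.26, 11.40 and 11.02 in the YC arrays. YC 2 and YC 3 lay above every other array, and YC 1 lay within the range of CR and MC. The means were 10.25 ± 0.20 in CR, 10.42 ± 0.26 in MC and 10.89 ± 0.58 in YC (SD, n = 3 each). The log2 change of CR minus MC was -0.17 ± 0.36 (SE) and that of MC minus YC -0.47 ± 0.36.

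Alpl encodes tissue-nonspecific alkaline phosphatase, which removes pyrophosphate, an inhibitor of mineral growth. It gave 10.86, 11.23 and 11.04 in CR, against 11.49, 11.54 and 12.62 in MC. The YC arrays gave 10.94, 12.72 and 12.12. CR lay below MC without overlap, while YC 1 lay among the CR arrays and YC 2 was the highest of all. The log2 change of CR minus MC was -0.84 ± 0.45 (95% interval -1.82 to 0.15, limma adjusted p = 0.329). MC minus YC was -0.05 ± 0.45, with an interval of -1.03 to 0.94 that leaves room for a change of nearly 1 log2 unit either way. With array class as a term in the fit, CR minus MC was 0.65, so its sign turned.

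Ibsp encodes bone sialoprotein, a matrix protein of newly mineralising bone. Its main probe set, 1417484_at, gave 11.22, 10.49 and 11.16 in CR, against 8.49, 10.01 and 9.64 in MC. In YC it gave 11.01, 9.72 and 12.06. Every CR array lay above every MC array, and YC spread across both, with YC 3 the highest and YC 2 below MC 2. The means were 10.96 ± 0.41 in CR, 9.38 ± 0.79 in MC and 10.93 ± 1.18 in YC (SD, n = 3 each). CR minus MC came to 1.58 ± 0.59, a 2.99-fold difference (95% interval 0.29 to 2.87, limma adjusted p = 0.215). MC minus YC came to -1.55 ± 0.59 (interval -2.85 to -0.26, adjusted p = 1). Both comparisons share the MC arrays. CR minus YC was 0.02 ± 0.59. Over the alternatives that kept this probe set, CR minus MC ran between 0.94 and 1.92 in 21 and MC minus YC between -2.23 and -0.999 in 22. With both Ibsp probe sets averaged, the values were 0.59 and -0.70.

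The other probe set of Ibsp, 1417485_at, was made from the same transcript accession and went the other way. It gave 9.44, 9.28 and 9.59 in CR, against 9.75, 9.90 and 9.87 in MC, again without overlap but with CR lower. Its log2 change of CR minus MC was -0.40 ± 0.38 (adjusted p = 0.569). YC 1 gave 9.27, the lowest of the 9 arrays, and YC 2 and YC 3 gave 9.67 and 10.11. All 4 low-median arrays lay below all 5 high-median arrays on it. A direction for the Ibsp gene as a whole is therefore not given by these data.

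Dmp1 encodes a matrix protein of dentin and of osteocytes that takes part in mineralisation and phosphate control. Its 3 probe sets ran in parallel. The main one, 1443746_x_at, gave 11.12, 11.69 and 11.95 in CR, against 9.48, 10.26 and 11.86 in MC. In YC it gave 11.28, 9.88 and 10.40. MC 3 lay within the CR range, so the groups overlapped. CR minus MC was 1.05 ± 0.57 on this probe set (adjusted p = 0.336) and 1.83 ± 1.09 on 1443745_s_at (adjusted p = 0.374). On leaving out 1 array the main probe set ran between 0.54 (without MC 1) and 1.76 (without MC 3), and 1443745_s_at between 1.27 and 2.62 without the same arrays. The dim 1426005_at, not tested, gave 1.55 ± 0.87. In Affymetrix naming the endings _s_at and _x_at mark probes that can match more than the named transcript.

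**Figure D2:**
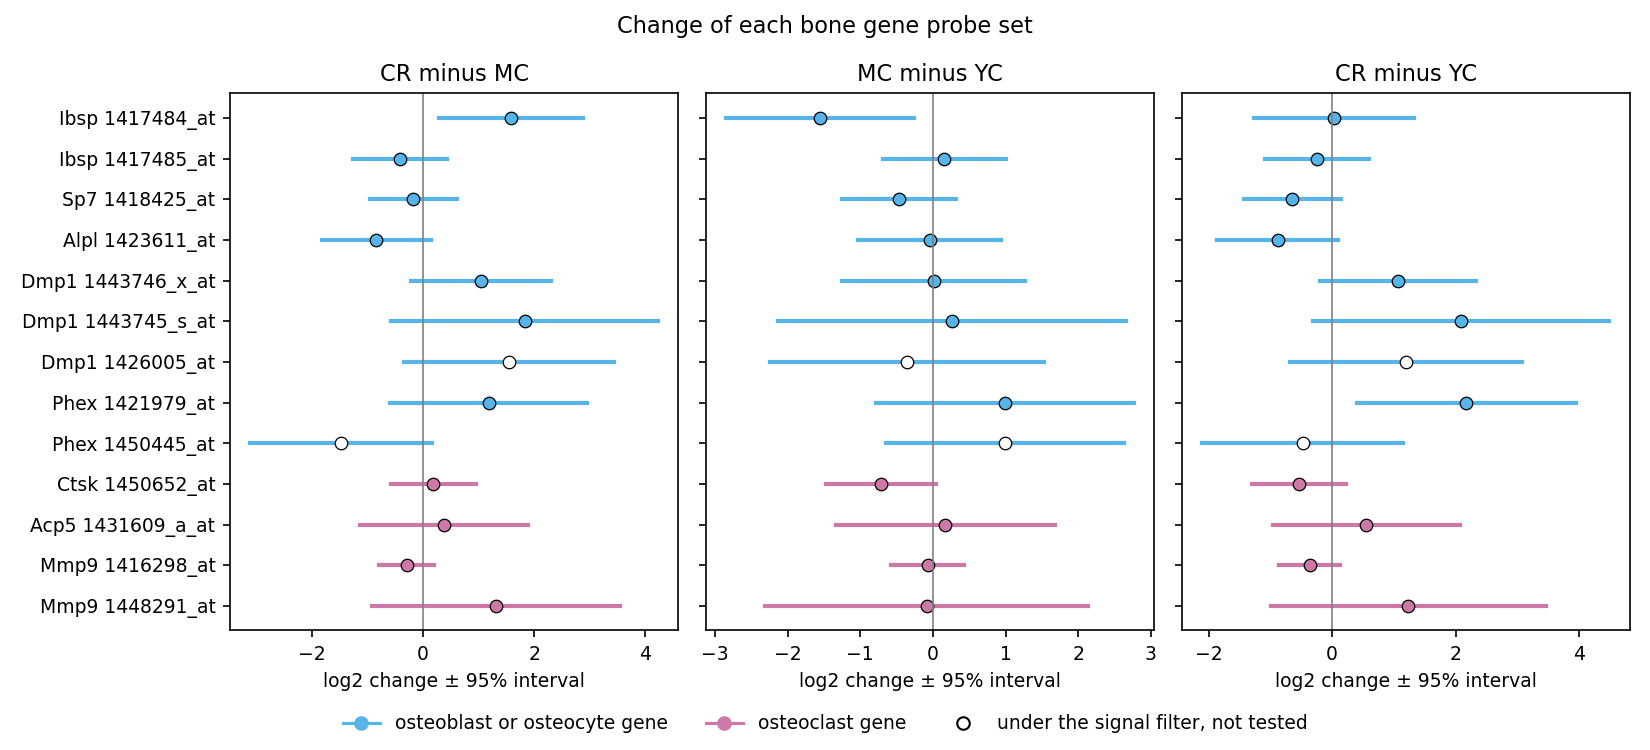
Log2 change (x axis) with its 95% interval for each of the 13 probe sets (rows) in the comparisons CR minus MC, MC minus YC and CR minus YC, with osteoblast or osteocyte genes in blue and osteoclast genes in pink. Open circles are the 2 probe sets under the signal filter; among the tested ones an interval clears 0 for Ibsp 1417484_at in the comparisons CR minus MC and MC minus YC and for Phex 1421979_at in CR minus YC, and none passed after adjustment.

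For MC minus YC the main Dmp1 probe set came to 0.01 ± 0.57, with an interval of -1.25 to 1.27. On 1443745_s_at the YC arrays gave 11.03, 6.05 and 9.47, so that YC 1 and YC 2 stood almost 5 log2 units apart, YC 1 within the CR range of 10.41 to 11.33 and YC 2 below every other array. MC 1 and MC 2 gave 7.95 and 8.76 and MC 3 gave 10.63. With array class as a term the CR minus MC change of the main probe set was -0.09 and that of 1443745_s_at -1.44.

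Phex encodes an endopeptidase of osteoblasts and osteocytes whose loss causes X-linked loss of phosphate. Its main probe set, 1421979_at, gave 10.14, 10.25 and 10.79 in CR, against 9.59, 8.79 and 9.25 in MC. In YC it gave 10.08, 6.24 and 8.34. CR lay above MC and above YC without overlap, but above YC 1 by little. CR minus MC was 1.18 ± 0.80 (adjusted p = 0.432) and CR minus YC 2.17 ± 0.80, a 4.50-fold difference (95% interval 0.40 to 3.94, adjusted p = 0.457). Among low-median arrays alone, CR minus YC was 0.31 with YC 1 as the only control, and without YC 2 the change of CR minus YC over all arrays was 1.20. With array class as a term CR minus MC was -1.61, so its sign turned. The dim probe set 1450445_at came to -1.47 ± 0.75 for CR minus MC, the opposite sign.

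Across these 5 genes, 3 main probe sets were higher and 2 lower in CR than in MC, with a median log2 change of 1.05 beside 0.08 over all probe sets tested. For MC minus YC, 2 were higher and 3 lower, with a median of -0.05 beside 0.02. For CR minus YC, 3 were higher and 2 lower, with a median of 0.02 beside 0.08. Ibsp, Dmp1 and Phex held the positive changes of CR minus MC and Alpl and Sp7 the negative ones. With a gene's probe sets averaged in place of its brightest one, the CR minus MC median was -0.14. The gene at that median was Phex, whose average takes in 1450445_at, a probe set under the signal filter with a change of -1.47.

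Ctsk encodes cathepsin K, the protease with which osteoclasts degrade collagen. It gave 11.76, 12.04 and 12.03 in CR, against 11.35, 12.62 and 11.30 in MC. The YC arrays gave 12.25, 12.82 and 12.35. MC 1 and MC 3 lay below every other array and MC 2 among the YC arrays, and all CR arrays lay below all YC arrays. CR minus MC was 0.19 ± 0.35, MC minus YC -0.72 ± 0.35 (interval -1.48 to 0.04, adjusted p = 1) and CR minus YC -0.53 ± 0.35 (adjusted p = 0.514). The sign of MC minus YC was negative in all 23 alternatives run for it, between -1.15 and -0.50, though some of these cannot alter a log2 change. CR minus MC changed sign without MC 1 or without MC 3, with -0.04 as the lowest value.

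Acp5 encodes tartrate-resistant acid phosphatase, a classic osteoclast stain. It gave 12.13, 12.02 and 12.16 in CR, against 11.70, 12.23 and 11.21 in MC. In YC it gave 12.80, 9.49 and 12.35. YC 2 stood apart from the 8 other arrays, which lay between 11.21 and 12.80. CR minus MC was 0.39 ± 0.68 and MC minus YC 0.17 ± 0.68 (adjusted p = 0.769 and 1). The MC minus YC change was -0.89 without YC 2 and -0.081 without MC 2, so its sign rested on these arrays. With array class as a term, CR minus MC was -1.49.

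Mmp9 encodes gelatinase B, which osteoclasts and neutrophils both make. Its main probe set, 1416298_at, gave 11.73, 11.89 and 11.51 in CR, against 11.78, 12.09 and 12.13 in MC. In YC it gave 11.94, 11.98 and 12.29. The CR arrays lay below the YC arrays without overlap and overlapped MC. CR minus MC was -0.29 ± 0.22 and CR minus YC -0.36 ± 0.22 (adjusted p = 0.488 and 0.5003). This was the most precise member, and its 95% interval of -0.57 to 0.42 for MC minus YC covers changes of less than 1.5-fold. On the dimmer 1448291_at, CR gave 10.34, 9.48 and 10.59, MC gave 7.83, 10.85 and 7.78, and YC gave 10.65, 6.89 and 9.18. It varied over nearly 4 log2 units, with MC 2 and YC 1 at the top, and CR minus MC was 1.32 ± 1.01, the opposite sign of the brighter one.

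The 3 osteoclast genes by their main probe sets were higher in 2 and lower in 1 case for CR minus MC, with a median of 0.19. For MC minus YC, 1 was higher and 2 lower, with a median of -0.07, and for CR minus YC, 1 was higher and 2 lower, with a median of -0.36.

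The osteoblast or osteocyte genes were set against the osteoclast genes as the mean of log2 values, each gene relative to its own mean over the 9 arrays. The formation genes averaged 0.13, 0.24 and 0.54 in CR, against -0.70, -0.34 and 0.27 in MC, and YC gave 0.17, -0.55 and 0.25. The resorption genes averaged -0.05, 0.06 and -0.03 in CR, against -0.31, 0.39 and -0.38 in MC, and YC gave 0.40, -0.49 and 0.41. The groups overlapped on both means, and on the resorption mean all 3 CR arrays lay within the range of MC and within that of YC. Formation minus resorption was 0.31 ± 0.22 in CR, -0.16 ± 0.72 in MC and -0.15 ± 0.09 in YC (SD, n = 3 each). By the brightest probe sets, all 3 CR arrays (0.18 to 0.56) lay above all 3 YC arrays (-0.23 to -0.06). MC spanned both, with MC 3 at 0.65 as the highest array of all and MC 2 at -0.73 as the lowest. The difference of means was 0.47 for CR minus MC and -0.01 for MC minus YC, less than the SD of MC in both cases, and 0.46 for CR minus YC, more than the SD of either group. With all probe sets of each gene averaged, CR minus MC was -0.18 and CR minus YC -0.021, so both signs rested on the probe sets used. The averages take in Phex 1450445_at and Dmp1 1426005_at, both under the signal filter. Averages of the tested probe sets alone were not run. With arrays centred on their median or left at the deposited scaling, CR minus MC was 0.081 and CR minus YC 0.27. These scalings give the same score by construction. With array class as a term, CR minus MC was 0.59 and CR minus YC 0.54. With the array median in the fit they were 0.73 and 0.63, and with array weights 0.62 and 0.49. On leaving out 1 array, CR minus MC ran between 0.19 (without MC 2) and 0.89 (without MC 3), and CR minus YC between 0.33 and 0.52.

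**Figure D3:**
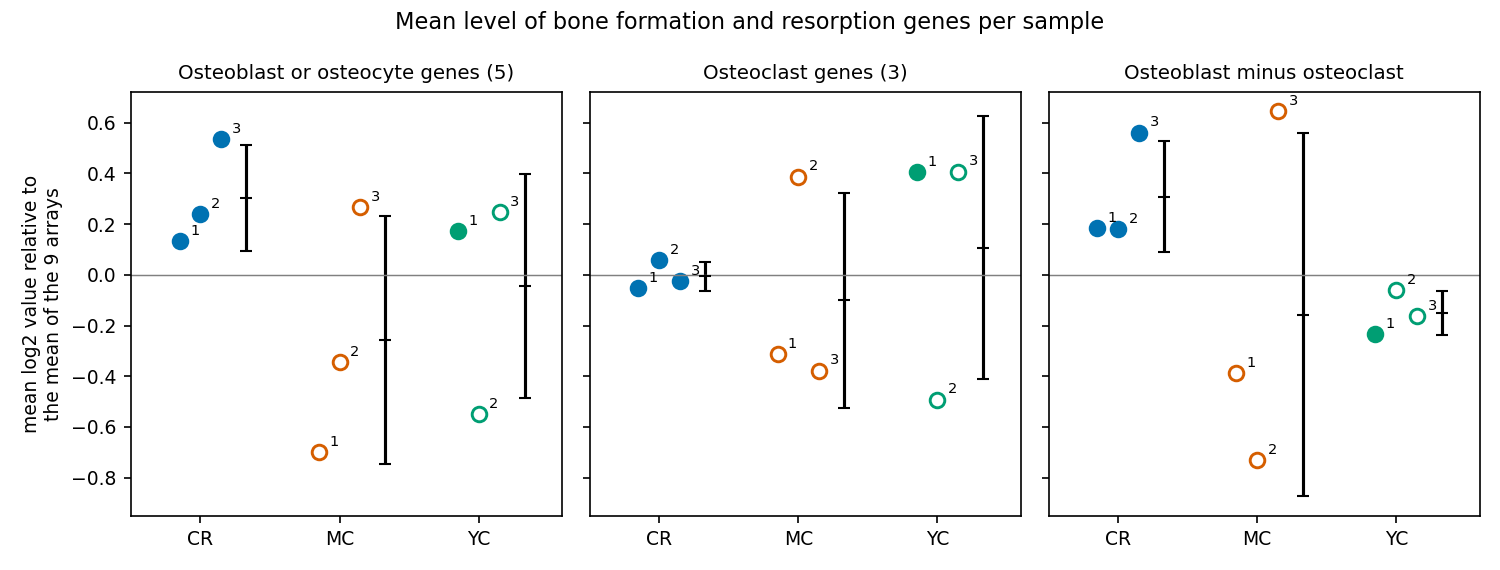
Mean log2 value relative to the mean of the 9 arrays (y axis) of the 5 formation genes, the 3 resorption genes and their difference in the CR, MC and YC samples (x axis), with the replicate number beside each point and the mean ± SD of each group as a bar. Filled points are low-median arrays; in the difference the CR points lie above the YC points, and MC spreads from -0.73 to 0.65.

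The array classes ran through several members. Alpl and Ibsp 1417485_at were lower, and Phex 1421979_at higher, on all 4 low-median than on all 5 high-median arrays, 3 of the 11 tested probe sets, and 21.9% of all tested probe sets separated the classes in this way. Without overlap between CR and MC were 4 of the 11, where 37.8% of all probe sets were. For CR against YC 3 of 11 did not overlap, where 20.5% of all did, and for MC against YC 0 of 11, where 5.88% did. Within the high-median arrays, where 3 MC arrays met YC 2 and YC 3, MC minus YC was -1.51 for Ibsp, 1.92 for Phex, -0.79 for Sp7, -0.54 for Alpl, 0.39 for Dmp1, -0.83 for Ctsk, 0.79 for Acp5 and -0.14 for Mmp9. Within the low-median arrays, CR minus YC was between -0.70 for Acp5 and 0.31 for Phex, with YC 1 as the only control. With array class as a term in the fit of all arrays, CR minus MC turned sign for Sp7, Alpl, Dmp1, Phex and Acp5, 5 of the 8 genes, and kept it for Ibsp (1.45), Ctsk (0.53) and Mmp9 (-0.092). Since CR and MC share no class, the class effect in that fit comes from YC 1 against YC 2 and YC 3 alone, so each of these values, wherever given, rests on the single array YC 1. No member passed in either class. CR and MC share no class, so no such value exists for restriction.

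Markers of other cells moved with the groups, and their part in the values above was not tested. Their sums and directions are on the quantile-normalized scale, and other scalings were not run for these marker lists. The summed normalized signal of 12 skeletal muscle genes was 235543 to 317335 in CR, against 826754 to 1183225 in MC, with 11 of 12 called lower. That of 10 brain genes was 39967 to 75425 in CR, against 19742 to 25146 in MC, with 9 of 10 higher and 0 called. That of 8 cochlear fibrocyte genes was 178572 to 256515 in CR, against 139118 to 176534 in MC. Car3, the brightest of these genes at a mean log2 signal of 16.08 in CR and 16.04 in MC, makes up a large part of that sum. For 11 neutrophil genes, the cells that also make Mmp9, the sum was 219306 to 302908 in CR, 220348 to 394243 in MC and 242415 to 413220 in YC. Of these, 9 of 11 were lower in CR than in MC and 11 of 11 lower in CR than in YC, 0 called. For 12 macrophage genes it was 223599 to 238807 in CR, 176534 to 269142 in MC and 198805 to 262965 in YC. Lyz2, the brightest of them at a mean log2 signal of 17.55 in CR and 17.41 in MC, makes up most of that sum. By gene, 8 of 11 tested macrophage genes were lower in CR than in MC, with a median of -0.22, and 8 of 11 lower in CR than in YC, with a median of -0.44, 0 called. Of 10 tested chondrocyte genes, 9 were higher in CR than in YC, with a median of 0.61, where 54.7% of all probe sets were higher. For CR minus MC 8 were higher, with a median of 0.29, where 54.7% of all were. For MC minus YC 8 were higher, with a median of 0.23, where 52.3% of all were. In each comparison 0 were called. No marker of these lists is given at 0, since every deposited signal is positive.

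Further genes of the same cells came from lists fixed with earlier results of these data known. Of 36 osteoblast and osteocyte genes, 26 were tested, and 0 passed in any comparison. For CR minus MC, 11 were higher and 15 lower, with a median log2 change of -0.23 beside 0.08 over all probe sets tested. This direction depended on the scaling: with arrays centred on their median, 22 were higher and 4 lower, with a median of 0.61 beside 0.57 over all probe sets, and with the deposited scaling the median was -0.0068 beside -0.047. Relative to all probe sets the list median was -0.31 as reported and 0.040 with either of the other scalings. Those scalings differ only by a constant per array, so they give the same relative value by construction. Serpinh1, the chaperone of collagen folding, had a log2 change of -1.09 ± 0.24 (adjusted p = 0.129) and Col1a2, a chain of type I collagen, by -0.71 ± 0.25 (adjusted p = 0.208). For MC minus YC the 26 genes were even, 13 higher and 13 lower, and Smpd3, a sphingomyelinase needed for normal mineralisation in mice, had a log2 change of -1.28 ± 0.56 and the matrix gene Cthrc1 by -0.79 ± 0.37 (adjusted p = 1 each). For CR minus YC, Col1a2 had a log2 change of -0.79 ± 0.25 and Serpinh1 by -0.67 ± 0.24 (adjusted p = 0.457 each).

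Of 26 osteoclast genes 23 were tested, again with 0 past the threshold. For CR minus MC, 7 were higher and 16 lower, with a median of -0.27. With arrays centred on their median 15 were higher and 8 lower, with a median of 0.30, so the sign turned. With the deposited scaling the sign was kept, with 10 higher, 13 lower and a median of -0.32. Relative to all probe sets the median was -0.35 as reported and -0.27 with either of the other scalings. Trem2, a receptor of myeloid cells, had a log2 change of -2.41 ± 0.63 (adjusted p = 0.156) and Rab38, a small GTPase of lysosome-related organelles, by -1.39 ± 0.38 (adjusted p = 0.162). Trem2, Csf1r and Tyrobp stand in the macrophage list as well. For MC minus YC, 15 were higher and 8 lower, and Jdp2, a factor of osteoclast differentiation in mice, had a log2 change of -0.74 ± 0.29 and the membrane protease gene Mmp14 by -0.70 ± 0.30 (adjusted p = 1 each). For CR minus YC, 8 were higher and 15 lower, with Rab38 at -1.18 ± 0.38 and Mitf, a transcription factor of osteoclasts and melanocytes, at 1.41 ± 0.46 (adjusted p = 0.457 each).

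Among 14 signals between these cells, 10 were tested and 0 passed, with 3 higher and 7 lower for CR minus MC and a median of -0.29. With arrays centred on their median, 6 were higher and 4 lower and the median was 0.24. With the deposited scaling, 4 were higher and 6 lower and the median was -0.38. Relative to all probe sets, the median was -0.33 with either of these scalings. Tnfrsf11b encodes osteoprotegerin, the decoy receptor that keeps RANK ligand from osteoclast precursors. It averaged 2.44 ± 0.58 log2 units more in CR than in MC, a 5.44-fold difference (limma adjusted p = 0.146). Its means were 10.75 in CR and 8.31 in MC, with no overlap between the groups, where 37.8% of all probe sets had none. It was past the threshold in 3 of 20 alternatives, namely without YC 2, with only CR and MC fitted and with array weights, and its value ran between 0.90 and 2.79 over all of them. Serpinh1, Rab38 and Trem2 passed for CR minus MC in the same 3 alternatives, and Col1a2 in 2 of them, not without YC 2. Those alternatives called 1147, 1846 and 3397 of all probe sets, in the order named. With the array class term, CR minus MC was 0.90 for Tnfrsf11b, -0.84 for Serpinh1, -0.046 for Rab38, -0.89 for Trem2 and 0.014 for Col1a2. Rab38 also passed for CR minus YC without YC 1, where 328 of all probe sets did. For Tnfrsf11b, MC minus YC was -0.96 ± 0.58 (adjusted p = 1) and CR minus YC 1.48 ± 0.58 (adjusted p = 0.457). Wnt5a, a secreted Wnt ligand, had a log2 change of -1.24 ± 0.42 for CR minus MC (adjusted p = 0.193) and by 0.90 ± 0.42 for MC minus YC, and with all its probe sets averaged both signs turned. Sema4d, a semaphorin made by osteoclasts, had a log2 change of -0.69 ± 0.25 for CR minus YC (adjusted p = 0.457).

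**Figure D4:**
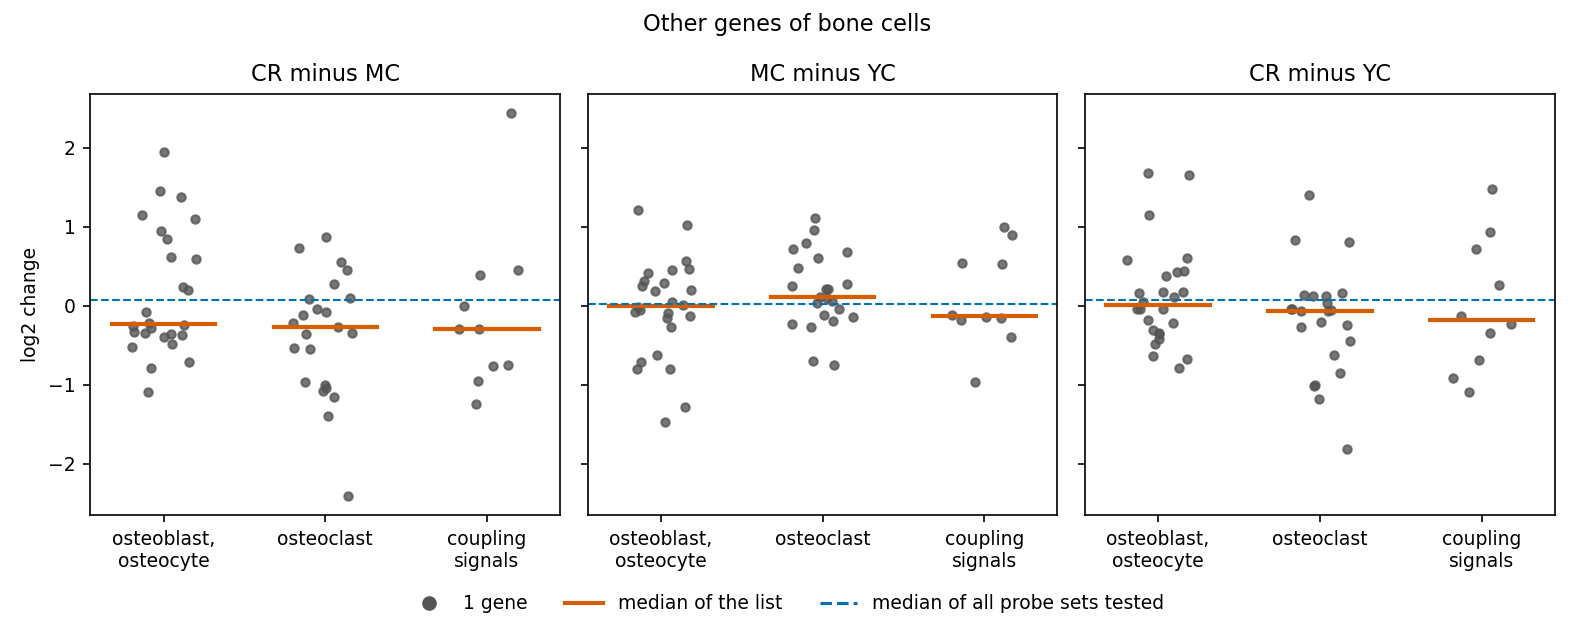
Log2 change (y axis) of each tested gene of the osteoblast and osteocyte list (26 genes), the osteoclast list (23) and the coupling signals (10) in the 3 comparisons, 1 point per gene, with the median of each list in orange and the median of all probe sets tested as a dashed line. In CR minus MC all 3 list medians lie between -0.29 and -0.23 on the quantile-normalized scale shown. They were 0.61, 0.30 and 0.24 with arrays centred on their median and -0.0068, -0.32 and -0.38 with the deposited scaling. The highest coupling signal in CR minus MC is Tnfrsf11b at 2.44.

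The named genes most like the mean of the formation genes over the 9 arrays were Otud7b (Pearson r = 0.97), Csrnp1 (0.96), Lrp12 (0.95), Ggps1 (0.95) and Cyp7b1 (0.95). Most like the mean of the resorption genes were Ctsh (0.96), Arhgap45 (0.95), Krt8 (0.95), Setd2 (0.94) and Oas3 (0.94). These are the highest among all tested probe sets over only 9 arrays, which share groups and array classes, and they are given as a description.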

How the data were processed

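RNA of 9 pooled cochlear samples was measured on arrays of 1 colour with biotin-labelled cRNA, per the labels' protocols, and the submitters' processing notes name GCOS 1.3. Each deposited value is a positive intensity on a linear scale for 1 probe set. The values show that arrays share nearly the same trimmed mean, while the signal algorithm, scaling target and filters were not stated there. Array medians differed 2.1-fold, so log2(signal + 16) was quantile normalized, which assumes like distributions in all samples; fold changes on this scale understate those of dim probe sets. The 27022 probe sets in the upper part of mean log2 signal, from the 40th percentile on, were tested. All 9 arrays were fitted in limma 3.58.1 under R 4.3.3 by group means with a variance trend, and p was adjusted by Benjamini-Hochberg over all probe sets. Standard errors and 95% intervals come from this fit. The arrays' number limits the precision, with a median SE of 0.43.

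A platform annotation named 34945 probe sets with 1 gene symbol and 932 with several, while 9160 had no name given, and gene IDs of GRCm38.p6 supplied the current symbols. Every member is named with all its probe sets, and each list contributed the 2 genes with the smallest p, as none passed. The planned scores of 7 formation genes rest on 5, since Runx2 and Spp1 are not analysed here. Members, lists, tests and alternatives were chosen with earlier results of these data known. The labels do not say that the pools of a group came from separate cohorts, so p-values measure the spread between these samples. No arrays were identical. The fit was tested on simulated data with independent noise for each probe set. That simulation held no array classes, so it does not cover their effect on the comparisons. Alternatives changed the pseudocount, filter, normalization, variance model, arrays fitted, replicate block, array class and probe set choice.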

Additional observations from a re-analysis of the deposited data

How the results depend on the processing

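Over 24 alternatives, 538 values of the 8 genes were computed, of which 485 kept the sign and 53 did not. Changes of the filter or variance model, the replicate block and a fit of only the 2 groups compared leave a log2 change as it is. Signs kept there were fixed by construction, so the 485 are no measure of stability. The 2 values that passed the threshold were Ibsp and Dmp1 for CR minus MC with array weights (1.72 and 1.46, adjusted p = 0.023 and 0.038). Of 584 values of other probe sets and list genes, 16 passed and 29 changed sign. The list genes among them were those with the smallest p in the reported fit, so the 16 are no rate for the lists. Counts are of called probe sets for CR minus MC, 25 in the reported fit, unless named; changes are log2 values. The causes of the following shifts were not tested. The count was 0 with arrays centred on their median, without a variance trend, with the replicate block, with array class or the array median in the fit, 7 with the deposited scaling, 16 genes with averaged probe sets, 1846 with only the 2 groups compared and 3397 with array weights. It ran between 0 and 1147 on leaving out 1 array, the highest without YC 2, and between 0 and 328 for CR minus YC, the highest without YC 1. The F test called 0 as reported, 1 with no signal filter or the deposited scaling, 10 genes with averaged probe sets, 1027 with array weights and 0 to 50 on leaving out 1 array. CR minus YC had 3 calls within low-median arrays. With array class as a term, CR minus MC was 0.78 for Sp7, 0.65 for Alpl, -0.090 for Dmp1, -1.61 for Phex, -1.49 for Acp5, 0.22 for Ibsp 1417485_at, -1.44 for Dmp1 1443745_s_at, -1.30 for Mmp9 1448291_at and 0.014 for Col1a2. There, MC minus YC was -0.54 for the median of formation genes, -0.053 for Ibsp 1417485_at and 0.79 for Mmp9 1448291_at. There, CR minus YC was -0.059 for Ibsp, 0.11 for Alpl, -0.70 for Acp5, 0.16 for Ibsp 1417485_at, -0.084 for Dmp1 1443745_s_at and -0.51 for Mmp9 1448291_at. With the array median in the fit, CR minus MC was 0.52 for the median of formation genes, -0.25 for the median of resorption genes, 0.52 for Sp7, 0.28 for Alpl, -0.71 for Phex, -1.36 for Acp5, -0.43 for Dmp1 1443745_s_at and -1.03 for Mmp9 1448291_at. There, MC minus YC was 0.72 for Mmp9 1448291_at. There, CR minus YC was -0.40 for Ibsp, -0.59 for Acp5 and -0.30 for Mmp9 1448291_at. With array weights, whose estimation stopped short of its tolerance, MC minus YC was -0.45 for the median of resorption genes, 0.038 for Alpl, -0.54 for Dmp1, -0.12 for Acp5 and -0.76 for Dmp1 1443745_s_at. There, CR minus YC was -0.71 for the median of formation genes and -0.044 for Ibsp. With arrays centred on their median, CR minus MC was 0.93 for the median of resorption genes, 0.099 for Sp7, 0.49 for Mmp9 and 0.22 for Col1a2. There, MC minus YC was -0.29 for Dmp1 and -0.34 for Acp5. There, CR minus YC was 0.15 for the median of resorption genes, 0.080 for Ctsk and 0.15 for Mmp9. With the deposited scaling alone, MC minus YC was 0.054 for Alpl, -0.074 for Dmp1 and -0.13 for Acp5. There, CR minus YC was -0.16 for Ibsp. Averages of a gene's probe sets took in those under the signal filter. With each gene so averaged, CR minus MC was -0.14 for the median of formation genes and -0.18 for formation minus resorption. It was 0.51 for Mmp9 and 0.85 for Wnt5a. There, MC minus YC was -0.025 for Dmp1 and -0.18 for Wnt5a. There, CR minus YC was 0.43 for the median of resorption genes, -0.021 for formation minus resorption, -0.11 for Ibsp and 0.43 for Mmp9. For comparisons with YC, the fit with array class as a term gives the same changes as the comparison within a class. The within-class values given next therefore repeat those estimates by construction. Within high-median arrays, MC minus YC was -0.54 for the median of formation genes, -0.053 for Ibsp 1417485_at and 0.79 for Mmp9 1448291_at. Within low-median arrays, CR minus YC was -0.059 for Ibsp, 0.11 for Alpl, -0.70 for Acp5, 0.16 for Ibsp 1417485_at, -0.084 for Dmp1 1443745_s_at and -0.51 for Mmp9 1448291_at. On leaving out 1 array, CR minus MC ran over 0.54 to 1.24 for the median of formation genes, -0.043 to 0.62 for Ctsk and -0.043 to 0.62 for the median of resorption genes. On leaving out 1 array, MC minus YC ran over -0.53 to 0.37 for Alpl, -0.14 to 0.036 for Mmp9, -1.11 to 0.76 for Mmp9 1448291_at, -0.89 to 0.76 for Acp5, -0.62 to 0.15 for the median of formation genes, -0.67 to 0.55 for Dmp1, -1.14 to 1.34 for Dmp1 1443745_s_at, -0.051 to 0.37 for Ibsp 1417485_at, -0.57 to 0.036 for the median of resorption genes and -0.010 to 1.91 for Phex. On leaving out 1 array, CR minus YC ran over -0.61 to 0.60 for Ibsp, -0.49 to 1.14 for Acp5 and -0.41 to 0.60 for the median of formation genes. The labels state no pairing by the replicate numbers that the groups share. Of 9 same-numbered pairs, 2 had deviations correlated over 0.1. The range was -0.29 to 0.27, against -0.24 to 0.28 for pairs of other numbers. With 3 arrays per group, these correlations cannot exclude a pairing. With the replicate block no member passed. Signal over background is unknown, since no background or detection call was used here, and dim probe sets such as Phex 1450445_at and Dmp1 1426005_at are limited by it.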
